A study of Mus musculus with 4 samples.

Results

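Erythrocyte/megakaryocyte progenitors (MEPs), the committed precursors of red cells and platelets, were profiled from adult bone marrow and from the fetal liver at E14.5 of embryonic development. The comparison described here is between the 2 Ezh2-null (Ezh2-/-) samples of the series, chosen by their titles out of 4 samples in all. The other 2 samples, wild-type MEPs from the same sources, are given beside them. All mice were on the C57BL/6 background, and the ages were E14.5 for fetal liver and "adult", with no number, for bone marrow. The method of isolation, the number and sex of the animals, any pooling and the part of Ezh2 that was removed are not given in the sources used here. Each group is 1 single-colour microarray, so no difference between a pair of arrays has a replicate check or a p-value, and a gene was called when it differed at least 2-fold, that is by 1 on the log2 scale.

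Ezh2 is the main catalytic subunit of Polycomb repressive complex 2 (PRC2), which methylates histone H3 at lysine 27 and keeps developmental genes silent. Ezh1 is its paralogue, and PRC1 complexes act on the same chromatin. Blood formation moves from the fetal liver to the bone marrow around birth, and along the way fetal progenitors give up a growth programme that includes Lin28b, Hmga2, Igf2bp1 and H19, while embryonic globins have already given way to adult globins. The comparison asks which genes differ between fetal and adult progenitors when both lack Ezh2.

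Of 31693 genes or other names on the array, 16678 were well above background on at least 1 of the 2 null arrays: 12747 on both, 1216 on the bone marrow array alone and 2715 on the fetal liver array alone. Signals were scaled to a common 75th percentile, on which scale the median gene was 0.51 lower (log2) in bone marrow, and every difference below is relative to that median gene. Levels are scaled probe signals in arbitrary units with the median gene set equal on the arrays of a genotype, so the ratio of 2 levels is the relative fold. A gene that was not well above background on 1 array has a bound only, written as "at least" so many fold, against the higher of that array's lowest detected signal (13.3 in null fetal liver, 14.2 in null bone marrow) and the probe's own signal.

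By this measure 3260 genes (19.5% of those compared) were at least 2-fold higher in null bone marrow and 2374 (14.2%) were at least 2-fold lower. A cell type's share of a sample and its RNA per cell cannot be told apart in such bulk RNA. The calls include 569 bounds on the higher and 972 on the lower side. In wild type, 22.2% of 15371 genes were called higher and 8.72% lower in bone marrow. With the 75th percentile alone and no median taken off, the null split was 1715 higher and 4482 lower, and with spike-in scaling it was 4321 higher and 1894 lower.

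The 4 arrays did not stand equally far apart. The 2 bone marrow arrays correlated at 0.982 over detected probes, the 2 fetal liver arrays at 0.937 and the 2 null arrays at 0.915. Of the 2374 genes lower in null bone marrow, 1377 (58.0%) were at least 2-fold higher in null fetal liver than on each of the other 3 arrays, wild-type fetal liver included. Only 229 (9.65%) separated both bone marrow arrays from both fetal liver arrays by 2-fold. On the higher side 1500 of 3260 genes (46.0%) separated both sources in both genotypes, 436 (13.4%) were genes for which null fetal liver alone was low and 382 (11.7%) genes for which null bone marrow alone was high. Of 14392 genes compared in both genotypes, 1620 were higher in bone marrow in both, which is 52.8% of the null and 49.2% of the wild-type calls. Lower in both were 346, or 18.8% of the null and 28.5% of the wild-type calls.

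Differences also moved with the position of the probe in its transcript, counted from the 5′ end and therefore large only in long transcripts. Only genes well above background on both arrays of a pair were sorted by position. In null cells the median relative difference was 0.18 over 1279 genes with probes at positions up to 220 and -0.24 over 1275 genes with positions from 3710 upward, where 24.2% of the genes were called lower. In wild type the corresponding medians were -0.22 and -0.05, with the highest, 0.21, at positions from 2636 to 3645. The part of RNA length or integrity in the differences was not tested; with the trend on position taken off, 3146 genes were higher and 2321 lower.

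**Figure D1:**
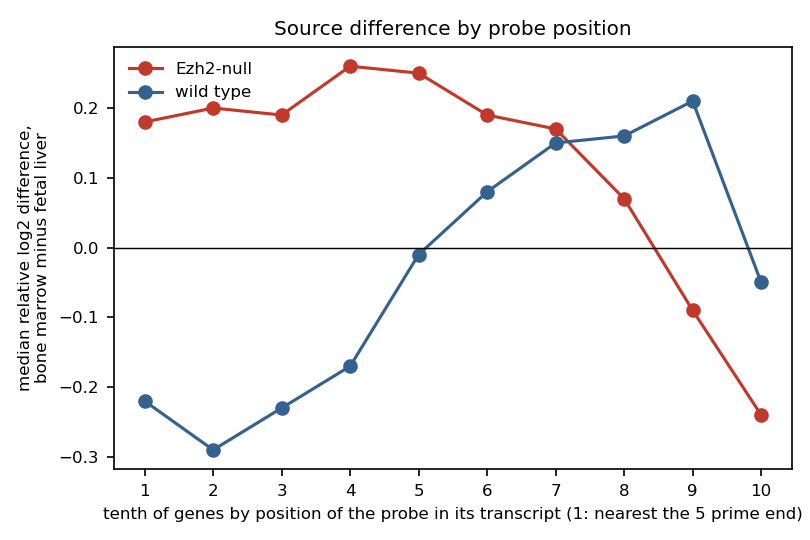
Median relative log2 difference (bone marrow minus fetal liver) of genes sorted into 10 equal bins by the position of their probe in the transcript, for the Ezh2-null pair (red) and the wild-type pair (blue). Only genes well above background on both arrays of a pair are included. The null line runs from 0.18 in the first bin to -0.24 in the last, whereas the wild-type line starts at -0.22 and peaks at 0.21.

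Both null samples carried the RNA of the lineage in their label. Gata1, the master factor of erythroid and megakaryocytic cells, gave levels of 6630 in fetal liver and 10900 in bone marrow. Hemgn, an erythroid nuclear protein, gave 89700 and 56100, and Epor, the erythropoietin receptor, 706 and 1410. Kit, the stem cell factor receptor of progenitors, was at 363 and 413. Itga2b, the platelet integrin CD41 used to recognise megakaryocytic cells, was well above background in null fetal liver only (34.2 against 11.2 in bone marrow, at least 2.40-fold), a call that was lost with normexp background correction, quantile normalization and a pseudocount. Epb42 and Tmod1, genes of more mature red cells, were at or below background on both null arrays, as were Ppbp, Gp6, Selp, Tubb1, F2rl2, Thbs1 and Mpig6b of the platelet list and Cd34, Flt3, Slamf1 and Meis1 of stem and multipotent cells.

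Ezh2 itself cannot serve as a check of the genotype. Its only probe, at chr6:47480307-47480366 (mm9, position 2558 of the transcript), was well above background on all 4 arrays and brighter on both null arrays than on their wild-type partners, at 194 in null fetal liver and 99.8 in null bone marrow against 33.5 and 52.9 in wild type. The labels do not say whether this part of the transcript was deleted. The 3 Ezh1 probes disagreed: the brightest gave 235 in null fetal liver and 134 in null bone marrow, another 66.1 and 98.4, and the third was at background throughout.

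Globin genes are shown first because their order along the chromosomes is the order of their use in development. Each array probe is 60 bases; those inside the coding part read 5′ to 3′, in lower case, for 2 embryonic and 2 adult genes:
Hbb-y, embryonic beta-type, chr7:111000448-111000507 (mm9, minus strand): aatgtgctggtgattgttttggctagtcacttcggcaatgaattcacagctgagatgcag
Hba-x, embryonic alpha-type, chr11:32177668-32177727 (mm9, plus strand): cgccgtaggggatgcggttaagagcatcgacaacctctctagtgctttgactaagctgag
Hba-a1, adult alpha-type, chr11:32183955-32184014 (mm9, plus strand): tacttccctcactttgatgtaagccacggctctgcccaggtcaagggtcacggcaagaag
Hbb-b2, adult beta-type, chr7:110962047-110962106 (mm9, minus strand): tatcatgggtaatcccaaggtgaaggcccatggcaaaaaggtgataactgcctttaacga

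Embryonic globins were detected in null fetal liver and not in null bone marrow. Hbb-bh1, whose probe lies at chr7:110990209-110990268, was at 2090 in null fetal liver against 6.25, below the background limit, in null bone marrow, a difference of at least 147-fold. In wild type the same probe gave 552 in fetal liver and 6.18 in bone marrow, at least 33.3-fold. Hba-x, the probe printed above, was at 88.2 against 3.51 (at least 6.20-fold), and the Hbb-y probe printed above was at 59.7 against 4.19 (at least 4.2-fold). Both were below background on both wild-type arrays, so of the 4 arrays only null fetal liver had them above it. Under normexp background correction Hba-x and Hbb-y no longer passed 2-fold. The fourth gene of the list, Hbb-bh2, was flat at 51.4 and 50.6.

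Adult globins separated the sources far less in null cells than in wild type. Hba-a1 was at 6580 in null fetal liver and 5490 in null bone marrow, a ratio below 2-fold, where the wild-type values were 32800 and 647. Hbb-bt was at 17500 and 5540 (3.16-fold lower in bone marrow), against 39900 and 293 in wild type. Hbb-b2, the second beta-type probe shown above, was at 620 and 230 (2.70-fold lower), against 1510 and 28.6 in wild type. Both bone marrow levels were thus under their fetal counterparts in every adult globin measured, with null bone marrow between wild-type bone marrow and the fetal arrays. The difference between the genotype pairs was not tested. Hba-a1 and Hba-a2 are near-identical copies, as are the adult beta genes, and their probes may share signal. Ahsp, the chaperone of free alpha-globin, went the other way, at 1760 in null fetal liver and 8460 in null bone marrow (4.80-fold higher); in wild type it was 8800 and 4960.

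Some genes of the fetal growth programme were detected in null fetal liver and not in null bone marrow. Of 12 such genes on the array 8 were measured in null cells, of which 4 were called lower and 0 higher (median -1.80), beside 14.2% called lower among all genes. Igf2bp1, an mRNA-binding protein of fetal tissues, was at 150 in null fetal liver and 3.53 in null bone marrow (at least 10.6-fold). Lin28b, which blocks the let-7 microRNAs in fetal progenitors, was at 89.1 against 5.83 (at least 6.26-fold). Hmga2, a chromatin protein that let-7 represses, was at 124 against 2.99 (at least 8.70-fold), and Arid3a, a DNA-binding protein of fetal B-lymphoid development, at 178 against 2.99 (at least 12.5-fold). All 4 are bounds, since none of them was detected in null bone marrow. A second Lin28b probe differed the same way (162 and 3.32, at least 11.4-fold), whereas a second Hmga2 probe was at or below background on both null arrays (13.4 and 10.2). Of these 4, only Igf2bp1 was also called lower in wild-type bone marrow (266 against 4.07); Lin28b was at 17.4 and 21.7, and the Arid3a probe and the brighter Hmga2 probe were below background in both wild-type sources, the second Hmga2 probe being at 18.5 in wild-type bone marrow. Hmga1, the abundant relative of Hmga2, was at 14300 and 7860 (1.82-fold lower, no call; 2.04-fold lower in wild type), Plagl2 at 159 and 108 (no call; at least 10.9-fold lower in wild type) and Hmgb3 at 5280 and 6070.

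Imprinted genes, expressed from 1 parental allele and many of them controllers of fetal growth, were called lower in null bone marrow for 7 of 15 measured and higher for 1 (median -0.99), beside 14.2% and 19.5% of all genes. H19, the maternally expressed non-coding RNA, was at 1510 in null fetal liver and 6.67 in null bone marrow (at least 106-fold), and at 1580 and 15.6 in wild type. A dimmer second H19 probe gave 25.2 and 16.9 in null cells, which is 1.5-fold and no call. Dlk1, a paternally expressed Notch-related protein, was 17.8-fold lower, from 258 in null fetal liver, Snrpn at 134 and 4.05 (at least 9.44-fold) and Peg10 at 82.9 and 2.95 (at least 5.83-fold). These 4 genes separated both bone marrow arrays from both fetal liver arrays. Grb10, an inhibitor of growth factor signalling, differed 8.17-fold (496 and 60.7) but was at background in both wild-type samples, and Igf2r, the receptor that removes Igf2, differed 3.76-fold (749 and 199). Gnas, the stimulatory G-protein alpha subunit, was the member on the other side, at 231 and 1190 (5.16-fold higher). The Gnas call was lost with the mean over all probes of the gene. Igf2, Meg3 and Mest were below background on both null arrays.

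Regulators that act on the globin switch were split. Of 12 measured, 4 were higher and 3 lower in null bone marrow (median -0.09), beside 19.5% and 14.2% of all genes. Klf1, the erythroid factor that drives adult beta-globin, was at 1720 and 4780 (2.77-fold higher), Mta2 of the NuRD complex at 672 and 4310 (6.41-fold) and Nfix at 101 and 348 (3.44-fold). The Klf1 call was lost with quantile normalization and the 75th percentile alone. Myb, which maintains progenitors and opposes erythroid maturation, was at 840 and 160 (5.24-fold lower); in wild type it was at 207 and 611. Bcl11a, the repressor of embryonic and fetal globins, was at 435 and 376.

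Among erythroid and megakaryocytic transcription factors none was called lower and 6 of 15 measured were higher, beside 19.5% of all genes. Lmo2, the bridging subunit of the Gata1-Tal1 complex, was at 491 in null fetal liver and 3170 in null bone marrow (6.46-fold), E2f2 at 154 and 583 (3.78-fold) and Gata2, the progenitor member of the Gata pair, at 50.6 and 169 (3.34-fold). Tal1 (2.14-fold) and Gfi1b (2.17-fold) lay close to the limit and lost the call under quantile normalization, with the 75th percentile alone and with a pseudocount. Tal1 also lost it when the median, or the filter, was restricted to genes detected on both arrays.

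Red cell genes held the widest contrast in opposite directions. Of 22 measured, 12 were higher and 4 lower in null bone marrow (median 1.09), beside 19.5% and 14.2% of all genes. Car1, carbonic anhydrase 1, which is switched on in adult-type red cells, was at 106 in null fetal liver and 6420 in null bone marrow (60.3-fold), and at 66.3 and 9520 in wild type; a second Car1 probe differed 34.3-fold in null cells. Car2 was at 436 and 3520 (8.07-fold), the water channel Aqp1 at 1660 and 17200 (10.3-fold) and glycophorin C (Gypc) at 163 and 848 (5.19-fold). On the other side, Slc2a1, the glucose transporter Glut1, was at 1280 in null fetal liver and 18.1 in null bone marrow (70.9-fold lower), and Epb41, the skeletal protein 4.1R, at 3550 and 370 (9.61-fold lower). Slc2a1 was low on both bone marrow arrays (16.5 in wild type, not well above background), whereas Epb41 was high in null fetal liver alone (620 in wild-type fetal liver).

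Haem and iron genes gave 7 higher and 4 lower of 21 (median 0.62), beside 19.5% and 14.2% of all genes. Uros, an enzyme of the middle of haem synthesis, was 6.52-fold higher (42.7 and 278). Of the null arrays, only bone marrow had Slc40a1, the iron exporter ferroportin, above background (at least 5.95-fold). In wild type Slc40a1 was detected in both sources, at 34.8 in fetal liver and 135 in bone marrow. Tfrc, the transferrin receptor, was 4.17-fold lower (167 and 40.1) and Hmox1, which degrades haem, 3.78-fold lower (219 and 58.0). In wild type Tfrc was at 50.2 and 90.0.

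The platelet list had 3 of 16 measured genes higher and 4 lower (median -0.17), beside 19.5% and 14.2% of all genes. Pf4, platelet factor 4, was at 64.7 in null fetal liver and 599 in null bone marrow (9.26-fold), Vwf, von Willebrand factor, at 29.0 and 241 (8.31-fold) and Gng11 at 59.4 and 225 (3.80-fold). For all 3 the null bone marrow array was at least 2-fold above each of the other 3. Plek, pleckstrin, was at 254 against 3.61 (at least 17.9-fold lower), Itgb3, the partner of Itga2b, at 289 and 64.5 (4.48-fold lower) and Treml1 at 200 and 50.2 (3.98-fold lower).

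Of the 42 gene lists examined, antigen presentation had the highest share of genes called higher in adult null cells. Major histocompatibility complex (MHC) class I molecules carry peptides, cut by the immunoproteasome and moved by the Tap transporter, to the cell surface, and interferons induce the whole set. Of 21 genes measured, 17 were at least 2-fold higher in null bone marrow and 2 lower (median 2.79), beside 19.5% and 14.2% of all genes. Of the 17, 13 separated both bone marrow arrays from both fetal liver arrays by 2-fold, beside 46% of all genes called higher. With normexp background correction 14 of the 17 kept the call, with a list median of 1.68.

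B2m, the light chain of all class I molecules (chr2:121978401-121978460), was at 97.4 in null fetal liver and 2570 in null bone marrow (26.3-fold), and at 92.4 and 2970 in wild type. The heavy chain H2-K1 was at 670 and 13300 (19.9-fold), against 903 and 15000, and H2-T23 at 79.6 and 1370 (17.2-fold), against 79.3 and 1690. For each of these 3 genes the fetal and the adult values of the 2 genotypes lay close together and far from the other source. The immunoproteasome subunits Psmb9 and Psmb8 were 43.7-fold (46.7 and 2040) and 19.1-fold (28.4 and 541) higher, the transporter subunit Tap2 16.4-fold (41.1 and 674), and Nlrc5, the transactivator of class I genes, 14.6-fold (13.7 and 200). Ciita, the transactivator of class II genes, was on the other side, at 483 and 111 (4.37-fold lower), and H2-Q4 differed 2.18-fold downward (1320 and 606). The Ciita call was lost with the mean over all probes of the gene. That of H2-Q4 was lost with normexp background correction and spike-in scaling. The class I heavy chains are near-identical copies whose probes may share signal.

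Interferon-response genes showed the same direction, with 13 of 21 measured genes higher and 2 lower (median 2.39), beside 19.5% and 14.2% of all genes. Of the 13, 12 separated both sources in both genotypes, beside 46% of all genes called higher. Irf9, the DNA-binding subunit of the interferon-stimulated complex, was at 23.5 in null fetal liver and 709 in null bone marrow (30.2-fold), Ifi27 at 348 and 10100 (29.1-fold), Ly6e at 543 and 10300 (19-fold) and Rtp4 at 20.2 and 278 (13.8-fold). Irf1 was detected on the bone marrow arrays alone (11.7 and 421, at least 31.8-fold), but the gene's probe nearest the 3′ end gave -0.30 on the log2 scale. Bst2, or tetherin, was 2.83-fold lower in null bone marrow (52.8 and 18.7), although 302 was measured in wild-type bone marrow against 31.3 in fetal liver, and Iigp1 was 2.79-fold lower (902 and 323). Mx1, Mx2 and Ifit1 were at or below background on both null arrays.

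Promoters of these genes were searched for GAAA, any 2 bases and GAAA again, on both strands, a form of the interferon-stimulated response element bound by interferon regulatory factors, in the 250 bases before each RefSeq start (GRCm38.p6). The motif and the lists were chosen after the data had been seen, and a match is a description and no proof of binding. A promoter sequence was matched by symbol for 9709 of the genes compared, of which 3.14% held the motif. It was found in 6 of 16 interferon-response promoters (37.5%) and in 2 of 16 promoters of the antigen-presentation list (12.5%). A stretch around the match is shown for 4 genes that were higher and for Bst2, which was lower in null bone marrow, with the matched letters in capitals:
Isg15, chr4:156200857-156200926 (GRCm38.p6, minus strand): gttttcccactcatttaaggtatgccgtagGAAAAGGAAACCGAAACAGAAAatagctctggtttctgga
Oas1a, chr5:120907526-120907575 (GRCm38.p6, minus strand): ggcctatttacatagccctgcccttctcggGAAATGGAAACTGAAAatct
B2m, chr2:122147518-122147587 (GRCm38.p6, plus strand): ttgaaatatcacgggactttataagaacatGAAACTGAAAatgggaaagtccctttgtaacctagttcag
H2-T23, chr17:36032786-36032855 (GRCm38.p6, minus strand): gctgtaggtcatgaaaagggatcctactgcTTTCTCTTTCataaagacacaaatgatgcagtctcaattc
Bst2, chr8:71537563-71537632 (GRCm38.p6, minus strand): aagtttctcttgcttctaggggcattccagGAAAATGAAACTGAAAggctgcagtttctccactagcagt

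Isg15, an ubiquitin-like protein with 3 overlapping matches in the stretch shown, was at 22.7 in null fetal liver and 147 in null bone marrow (6.49-fold). Oas1a, an RNA-sensing synthetase with 2 matches, was at 30.1 and 202 (6.74-fold). Bst2 holds 2 matches of the same kind and lay on the other side, so the presence of the letters did not go with 1 direction in every gene. Rsad2, a further gene with a match, was at 19.6 and 16.2.

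Of 16 lymphoid genes measured, 9 were at least 2-fold higher in null bone marrow than on each of the other 3 arrays. Against null fetal liver alone 10 were higher and 0 lower (median 1.86), beside 19.5% and 14.2% of all genes, whereas in wild type 1 of 8 was higher and 1 lower (median -0.65). Of the 10, 8 are bounds: they passed the background filter through null bone marrow only and could not have come out lower. The filter thus fixed part of this count and of its contrast with wild type. With normexp background correction 7 of the 10 kept the call and the null median was 0.60. Vpreb1, part of the surrogate light chain of pre-B cells (chr16:16868559-16868618), was at 2.80 in null fetal liver and 3140 in null bone marrow (at least 237-fold), and at 91.5 and 15.9 in wild type. Dntt, the terminal transferase of V(D)J joining, was at 26 and 1970 (75.7-fold), and at 35.0 and 114 in wild type. Pou2af1, a B-cell coactivator, was at 7.08 and 539 (at least 40.6-fold), and Vpreb2, Vpreb3 and Cd79b at least 19.2-, 16- and 9.35-fold higher. Dntt also separated both bone marrow arrays from both fetal liver arrays. The summed level of the list was 348 in null fetal liver and 6770 in null bone marrow, beside 534 and 466 in wild type. Rag1, Igll1, Ebf1, Il7r, Lef1 and Ptcra were at or below background on both null arrays, and Pax5 was at 92.3 and 96.7. The part of lymphoid cells in the other differences was not tested.

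Markers of other cell types were set beside the 19.5% of all genes called higher and the 14.2% called lower. Of the granulocyte and macrophage list 0 of 9 measured genes were higher and 1, Csf3r, was lower, with a summed level of 98400 and 83300 in the null samples, nearly all of it from the Itgam probe (85200 and 76300); Elane, Ctsg, Lyz2, S100a8 and S100a9 were at or below background. No tissue macrophage gene was called among 4 measured (summed level 213 and 170), and C1qa, Vcam1 and Cd163 were at or below background. Of the mast cell, basophil and eosinophil list 2 of 6, Prg2 and Il1rl1, were lower (sums of 332 and 141). Il1rl1 was at 130 in null fetal liver and 2.88 in null bone marrow, while Cpa3 and Ms4a2 were at or below background. Of the hepatocyte list 1 of 6 was higher, Trf (18 and 44.2, at least 2.46-fold), with sums of 234 and 200 and with Alb, Afp, Ttr and Hnf4a at or below background on both null arrays; in wild type the sum was 799 in fetal liver and 189 in bone marrow. Of 5 endothelial and stromal genes 2 were lower (556 and 263), Dlk1 and Col3a1. Xist, the RNA of the inactive X chromosome, was at 743 in null fetal liver and at background on the other 3 arrays (3.48 in null bone marrow, at least 52.2-fold), while a second probe gave 14.4, close to the detection limit, and the Y-linked Ddx3y, Kdm5d, Eif2s3y and Uty were at or below background on all 4 arrays. The part of the animals' sex in the other differences was not tested.

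Genes of glycolysis and of the response to low oxygen were mostly lower in null bone marrow. Of 24 genes measured, 14 were lower and 3 higher in null bone marrow (median -1.22), beside 14.2% of all genes called lower; with normexp background correction 13 of the 14 kept the call. Pkm, pyruvate kinase of the muscle type (chr9:59526867-59526926), was at 7450 in null fetal liver and 167 in null bone marrow (44.6-fold), and at 5040 and 13.6 in wild type. Slc16a3, the lactate exporter Mct4, was at 1570 and 62.2 (25.3-fold), and at 1870 and 20.4 in wild type. Hk2, hexokinase 2, was at 774 and 36.1 (21.4-fold) and Vegfa, the hypoxia-induced angiogenic factor, at 240 and 13.2 (at least 16.8-fold). Enzymes of the middle and lower pathway were lower by less: Pgam1 5.21-fold (18600 and 3560), Eno1 4.25-fold (14400 and 3380), Aldoa 3.14-fold (40200 and 12800), Pgk1 2.34-fold (5970 and 2550) and Ldha 2.06-fold (60900 and 29600). Gapdh was at 36600 and 22500 and was not called. The 3 higher genes were Ldhb, Pfkm and Ndrg1. Ldhb was at background in fetal liver (4.14) and at 244 in bone marrow (at least 18.4-fold higher). Pfkm was 6.01-fold higher (57.9 and 348) and Ndrg1 2.7-fold higher (22.9 and 61.8). The Ndrg1 call was lost with normexp background correction, the 75th percentile alone and a pseudocount. Hk2, Aldoa, Pgam1, Eno1, Pkm and Slc16a3 separated both sources in both genotypes, and Hk2, Pfkp, Aldoc and Vegfa were at least 2-fold higher in null fetal liver than on each of the other 3 arrays.

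Of the promoters, 12 of 22 on this list (54.5%) held ACGTG, the core of the element bound by hypoxia-inducible factors, on either strand of the 250 bases upstream, against 23.7% of all 9709. Among the 12 were Hk2, Aldoa, Pgam1, Pkm, Slc16a3 and Vegfa on the lower side, and Pfkm, which was higher. The 5 letters of this core are short, and a match is no proof of a site.

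Genes of the ATF4 response, which is switched on when amino acids run short or the endoplasmic reticulum is under stress, were called lower in null bone marrow for 7 of 17 measured and higher for 0 (median -0.74), beside 14.2% and 19.5% of all genes. In wild type 2 of 15 were lower and 1 higher (median 0.09). Trib3, a pseudokinase induced by ATF4 (chr2:152163161-152163220), was at 4510 in null fetal liver and 2.86 in null bone marrow (at least 317-fold), and at 377 and 3.41 in wild type. Nupr1, a stress-induced nuclear protein, was at 672 and 31.2 (21.5-fold), and at 39.9 and 72.3 in wild type. Psat1 of serine synthesis was 7.44-fold lower (2280 and 306), Atf5 4.23-fold (15000 and 3540) and Cebpb 3.86-fold (2400 and 620). Each of the 7 genes was at least 2-fold higher in null fetal liver than on the other 3 arrays, as were 58% of all genes called lower. Atf4 itself was at 26300 and 27600, and Asns, asparagine synthetase, at 4170 and 4780.

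The aminoacyl tRNA synthetases load amino acids onto tRNA and include ATF4 targets. They gave 6 lower and 2 higher of 17 (median -0.06), beside 14.2% and 19.5% of all genes. Lars was at 2080 and 151 (13.7-fold lower), Dars at 171 and 17.3 (9.86-fold) and Nars at 1420 and 168 (8.44-fold). In the 250 upstream bases the letters TGATGNAA, a form of the element bound by C/EBP-ATF dimers, lay in 2.47% of all promoters, in 3 of 14 of the ATF4 list (Chac1, Asns and Nupr1) and in 3 of 10 of the synthetase list (Aars, Gars and Tars). Stretches of 3 genes that were lower in null bone marrow and of Asns, which was not, are shown with the match in capitals:
Nupr1, chr7:126625543-126625610 (GRCm38.p6, minus strand): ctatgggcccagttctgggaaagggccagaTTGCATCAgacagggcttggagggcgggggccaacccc
Chac1, chr2:119351019-119351086 (GRCm38.p6, plus strand): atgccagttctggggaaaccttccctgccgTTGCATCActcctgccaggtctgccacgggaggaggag
Tars, chr15:11399659-11399703 (GRCm38.p6, minus strand): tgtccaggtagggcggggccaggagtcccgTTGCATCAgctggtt
Asns, chr6:7693210-7693262 (GRCm38.p6, minus strand): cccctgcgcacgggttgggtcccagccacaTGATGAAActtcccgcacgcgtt

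Chac1, which degrades glutathione, was at 59.7 in null fetal liver and 10.2 in null bone marrow (at least 4.19-fold lower). Tars, the threonine enzyme, was at 1190 and 247 (4.82-fold lower) and, in wild type, at 128 and 376. Aars and Gars, with matches of the same kind, were at 320 and 345 and at 5760 and 5520 and were not called, so the letters were present in genes with and without a difference.

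**Figure D2:**
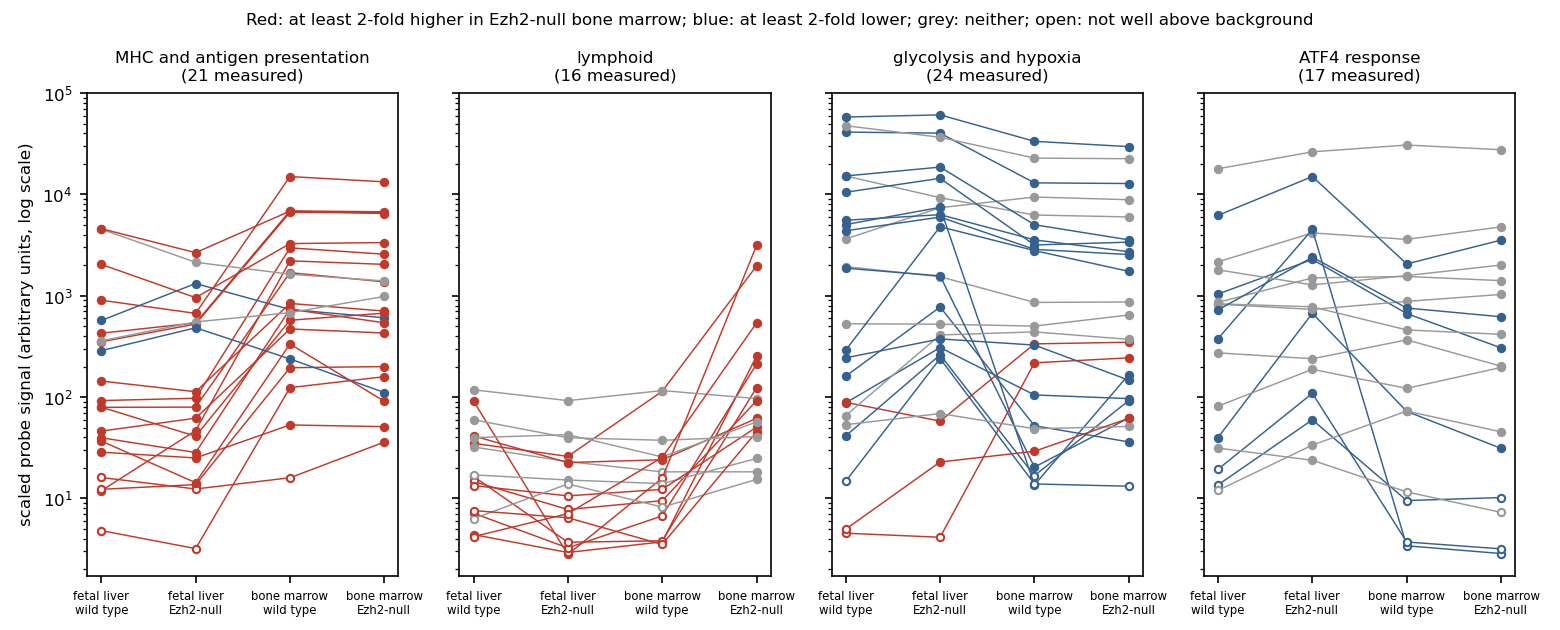
Scaled probe signals (arbitrary units, log scale) of the measured genes of 4 lists on the 4 arrays; each line is 1 gene, red where at least 2-fold higher and blue where at least 2-fold lower in Ezh2-null bone marrow than in Ezh2-null fetal liver, and open points are not well above background. Most antigen-presentation genes step up between the sources in both genotypes, the 10 red lymphoid genes are highest in null bone marrow, and the 7 blue ATF4-response genes peak in null fetal liver.

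Chaperones were divided similarly, with 8 of 20 measured genes lower and 3 higher (median -0.11), beside 14.2% and 19.5% of all genes. Hsp90aa1, the inducible Hsp90, was at 1850 and 82.6 (22.4-fold lower), the mitochondrial Hspd1 at 7440 and 611 (12.2-fold) and Hsph1 at 2010 and 368 (5.46-fold), and null fetal liver alone was high for these 3 and for Hspb1. The 3 higher genes separated both sources in both genotypes: Dnajb1 (2.35-fold) and the chaperonin subunits Cct2 (2.58-fold) and Cct3 (3.61-fold). The letters GAANNTTC, a core of the heat shock element, lay in 6 of 15 promoters of this list (40.0%) and in 6.6% of all promoters. The 6 were those of Hspd1, Dnaja1 and Hspb1, which were lower, Cct2, which was higher, and Hspe1 and Hspa1a, which were not called. Hsph1, which was lower, had no match.

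Immediate-early genes, transcribed within minutes of a stimulus or of tissue handling, were called higher in null bone marrow for 12 of 26 measured genes and lower for 1 (median 0.59), beside 19.5% and 14.2% of all genes. In wild type 18 of 26 were higher and the median was 2.51. Zfp36, which destabilises cytokine mRNA, was at 9.08 and 848 (at least 64.0-fold), Fos at 4 and 177 (at least 13.3-fold), Klf2 at 70.7 and 829 (11.7-fold) and the phosphatase Dusp1 at 297 and 2890 (9.74-fold). The wild-type bone marrow levels were higher still, at 1640 for Zfp36, 1470 for Fos, 1960 for Klf2 and 9620 for Dusp1. Klf6 was the exception, at 320 in null fetal liver and 11.3 in null bone marrow (at least 22.5-fold lower). Of 21 promoters on this list 0 held TGANTCA, the AP-1 letters, which lay in 5.98% of all promoters.

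Polycomb genes other than Ezh2 differed in both directions. Of 26 measured members of PRC2 and PRC1, 8 were higher and 5 lower in null bone marrow (median -0.06). Among all genes 19.5% were called higher and 14.2% lower. The chromobox genes Cbx2 and Cbx6, whose proteins read the H3 lysine 27 mark within PRC1, were at least 9.91-fold (8.27 and 131) and 4.01-fold (201 and 807) higher, and Rbbp4, the histone-binding PRC2 subunit, 3.20-fold (2370 and 7560). Each of these genes separated both sources in both genotypes. Mtf2, a PRC2 recruiter, was at 147 and 10.3 (at least 10.3-fold lower), Bmi1 of PRC1 at 3.12 in bone marrow (at least 7.52-fold), Rybp at 100 and 5.35 (at least 7.03-fold), Eed, the PRC2 subunit that binds the mark, at 505 and 212 (2.38-fold) and Suz12 at 34.1 and 3.37 (at least 2.40-fold). Mtf2, Bmi1, Rybp and Suz12 were at least 2-fold higher in null fetal liver than on each of the other 3 arrays. Mtf2 was nonetheless detected in wild-type bone marrow (68.6, with 4.82, below background, in wild-type fetal liver), and Rybp in wild-type fetal liver (34.8). The Suz12 call was lost with normexp background correction, quantile normalization and the position trend taken off. Those of Cbx6 and Rbbp4 were lost with the mean over all probes of a gene. In wild type Eed went the other way, at 81.1 in fetal liver and 424 in bone marrow.

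Of developmental genes that Polycomb holds silent in many tissues, few were measured. Their counts stand beside 19.5% of all genes called higher and 14.2% called lower. Of 34 Hox genes on the array 10 were measured, with 0 higher and 1 lower, Hoxc9 (30.9 and 11.8, at least 2.17-fold), a call lost under 4 alternative settings. Hoxa9 was at 6.56, below background, and 15.1. Of 28 other developmental transcription factors 10 were measured, with 1 higher and 1 lower. Lhx2, a LIM-homeobox factor, was at 475 in null fetal liver and 18.8 in null bone marrow (25.3-fold lower), and at 687 and 14.9 in wild type. Eya2, a developmental transcriptional coactivator, was at 11.3 and 351 (at least 26.5-fold higher), and at background in wild-type fetal liver with 24.7 in wild-type bone marrow. Sox2, Sox9, Gata6 and Foxc1 were among the 18 at or below background on all 4 arrays. Among DNA methylation genes 0 of 9 were higher and 3 lower: Dnmt3a (210 and 8.56, at least 14.8-fold), Tet2 (78.8 and 6.67, at least 5.54-fold) and Dnmt1 (101 and 39.8, 2.54-fold).

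Cell cycle genes were more often higher than lower in null bone marrow, with 14 of 32 measured proliferation genes higher and 5 lower (median 0.72). Among all genes 19.5% were called higher and 14.2% lower. Pcna, the polymerase clamp, was at 190 and 3050 (16.1-fold), and the mitotic genes Cenpa and Ccnb2 were 4.94- and 4.59-fold higher. Other replication genes on the higher side included Gmnn at 709 and 2250 (3.17-fold), Mcm7 at 9690 and 29100 (3.00-fold) and Cdt1 at 804 and 2130 (2.65-fold). The 5 lower genes were Mki67 (1060 and 154, 6.88-fold), Kif11, Mcm4, Ccnd2 and Ccna2. For all 5 null fetal liver was at least 2-fold above the other 3 arrays, as it was for 58% of all genes called lower. Mki67, the antigen Ki-67, was at 125 and 313 in wild type. Of the cyclin-dependent kinase inhibitors Cdkn2c (p18INK4c) was at 20.5 and 780 (38.1-fold higher) and Cdkn2d (p19INK4d), which limits erythroid divisions, at 1990 and 4490 (2.26-fold). Cdkn2a, a locus that Polycomb represses, was at 49.4 and 31.6 and was not called.

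Homing receptors were split between 5 higher and 5 lower of 14, beside 19.5% and 14.2% of all genes. Cxcr4, the receptor for the marrow chemokine Cxcl12, was at 36.2 and 654 (18-fold higher), and Spn (CD43) at 801 and 7850 (9.80-fold). Cd52 was detected in null bone marrow alone (162, at least 12.3-fold). The integrin chain Itga4, part of the receptor for Vcam1, was at 410 and 7.58 (at least 28.8-fold lower). Itgb1, Itga6 and Cd44 were 8.94-fold (166 and 18.6), 7.47-fold (286 and 38.2) and 4.73-fold (2900 and 613) lower. The Cd44 call was lost with the mean over all probes of the gene. Of cytokine signalling genes 5 of 16 were higher and 5 lower; Stat5a was 2.75-fold higher (249 and 683) and Jak2 at least 6.51-fold lower (92.6 and 11.8).

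Genes of large, abundant complexes shifted together by small amounts. Among all genes 19.5% were called higher and 14.2% lower, and the share of cytosolic ribosomal proteins called higher was below that of all genes. Of 96 oxidative phosphorylation genes 42 were higher and 2 lower (median 0.93), of 76 mitochondrial ribosomal proteins 35 were higher and 0 lower (median 0.93), of 33 constitutive proteasome subunits 16 were higher and 3 lower (median 0.90), and of 76 cytosolic ribosomal proteins 10 were higher and 0 lower (median 0.69). These medians lie just below the 2-fold limit, so the counts move with the scaling; on the 75th percentile scale alone each would be lower by 0.51, and all 4 would still be above 0. The median probe position was 440 for cytosolic ribosomal proteins, 492 for oxidative phosphorylation, 652 for mitochondrial ribosomal proteins and 1030 for the proteasome. In the bins of those positions, genes well above background on both null arrays had medians of 0.20, 0.19, 0.19 and 0.25. In wild type the medians were -0.21 for oxidative phosphorylation, -0.23 for cytosolic ribosomal proteins, 0.28 for mitochondrial ribosomal proteins and 0.79 for the proteasome. The 2 lower oxidative phosphorylation genes were Ndufa4l2, a hypoxia-induced relative of a complex IV subunit (656 and 17.3, 38.0-fold), and Cox6a2, the muscle-type cytochrome oxidase subunit (505 and 46.6, 10.9-fold). Ndufaf2, a complex I assembly factor, was the highest of the list (71.3 and 1140, 16-fold). The 16 reference genes had a median of 0.69, with 5 higher and 0 lower. Autophagy genes gave 8 higher and 1 lower of 14 (median 1.28), among them Pink1 at 74.4 and 376 (5.06-fold) and Gabarap at 924 and 2890 (3.13-fold).

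**Figure D3:**
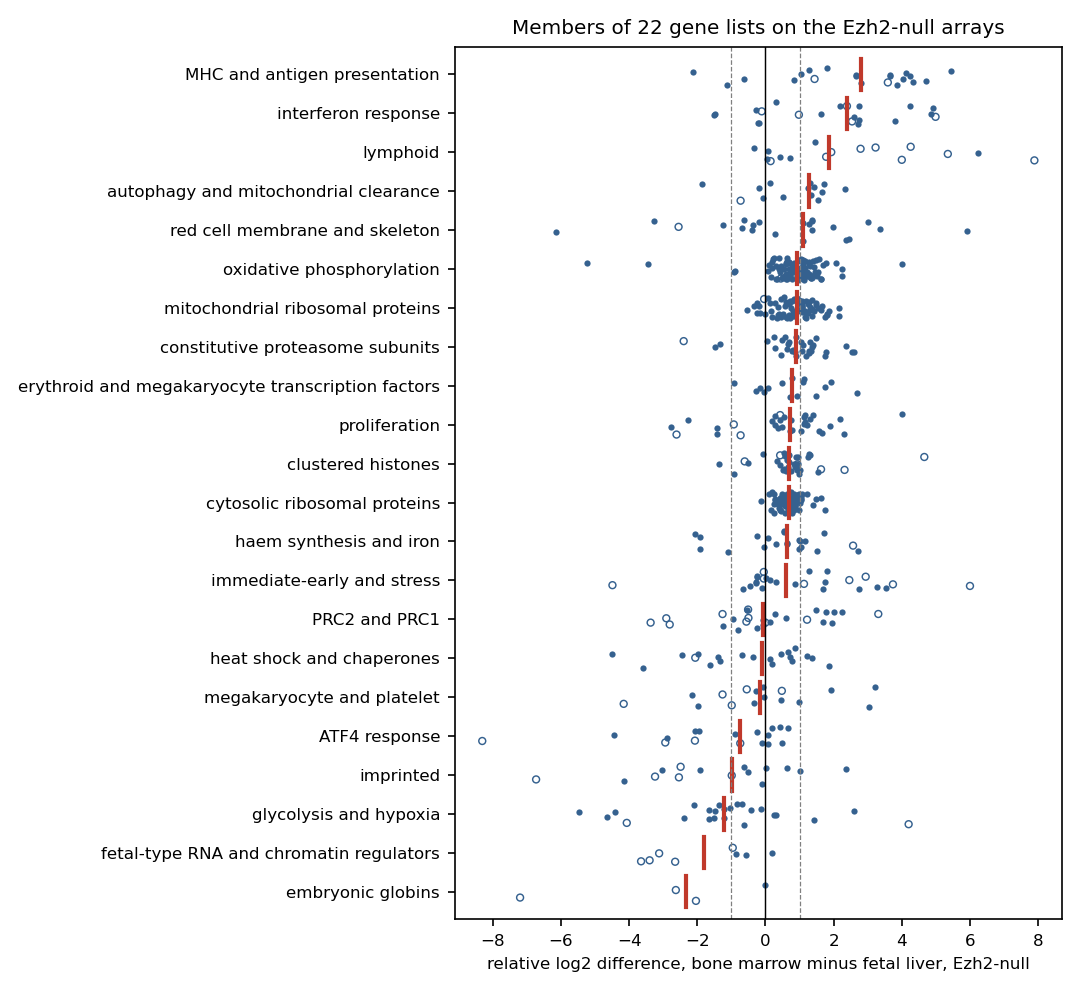
Relative log2 differences (bone marrow minus fetal liver, Ezh2-null) of the measured genes of 22 lists; filled points were well above background on both arrays, open points are bounds, red bars are list medians and dashed lines mark 2-fold. Antigen presentation has the highest median, 2.79, and embryonic globins, 4 genes, the lowest, -2.34.

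Clustered histone genes, which package newly copied DNA, were mostly lower in wild-type bone marrow and not in null bone marrow. In null cells 8 of 35 were higher and 1 lower in bone marrow (median 0.70), a share near the 19.5% of all genes called higher, and in wild type 2 of 34 were higher and 29 lower (median -1.57). H4c4, for example, was at 4740 in null fetal liver and 8760 in null bone marrow, and at 28900 and 5840 in wild type, so that wild-type fetal liver was the high array. Most of these genes lack a poly(A) tail and many probes match several near-identical copies. The difference between the genotype pairs was not tested.

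**Figure D4:**
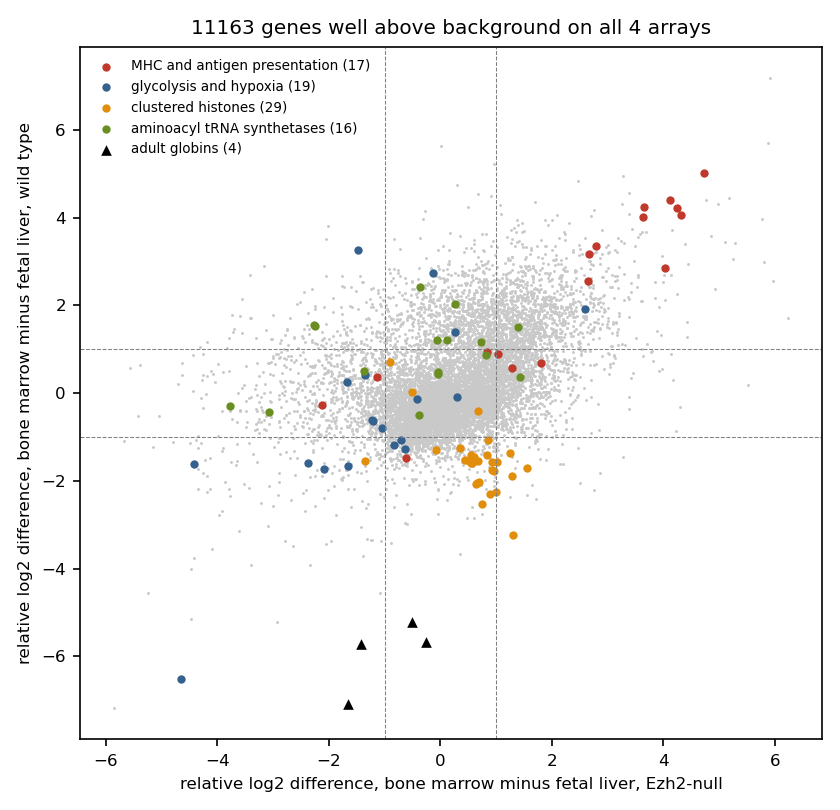
Relative log2 difference between bone marrow and fetal liver in Ezh2-null cells (horizontal) against the same difference in wild type (vertical) for the 11163 genes well above background on all 4 arrays, each a grey point, with 5 groups coloured; dashed lines mark 2-fold. Antigen-presentation genes lie mostly in the upper right, glycolysis genes mostly at the lower left, clustered histones mostly below the wild-type zero line and the 4 adult globins far below it, with null differences from -0.26 to -1.66.

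The 2 pairs share no array, and over the 11163 genes on all 4 arrays their differences correlated at 0.43, a description across genes, which are not independent replicates. Beyond the lists, the genes with the largest null differences among those detected on both arrays were Galnt10, a glycosyltransferase (13.6 and 852, 62.6-fold higher), Sdsl (25.2 and 1480, 58.7-fold), Btnl10 (32.8 and 1850, 56.2-fold) and Isg20, an interferon-induced exonuclease (30.8 and 1670, 54.0-fold). Further high genes, from 39.1- to 24.2-fold, were C1qtnf12, Stard10, Plscr1, Ces2g, Gsn, Lgals3bp, Suox and Myo1d. All 12 were also at least 5.87-fold higher in wild-type bone marrow. Of the null arrays, only bone marrow had Ctse, an aspartic protease (at least 40.5-fold), Cnp, Cmpk2, Sqor, Aldh1a1 and Tceal6 (at least 28.7-fold) above background; all 6 were also detected in wild-type bone marrow.

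On the lower side the leading genes included Tent4b, a non-canonical poly(A) polymerase (793 and 15.6, 50.9-fold), Sertad2 (1740 and 36.8, 47.1-fold), Ppip5k2 and the cohesin subunit Smc3 (887 and 32.0, 27.7-fold), followed by Tgs1, Mtrex, Lgals1, Klhl9, Tnks2, Eif2s2 and Smarca5 (20.3-fold). Of these, Lgals1, galectin-1, was the only one with a difference of like size in wild type (12900 and 580 in null, 35100 and 984 in wild type); the others differed at most 3.30-fold there. For Ppip5k2 the probe nearest the 3′ end did not pass 2-fold. Of the null arrays, only fetal liver had Ak4, a mitochondrial adenylate kinase (926 against 8.35, at least 65.1-fold), Rprd1a (at least 63.7-fold), Prrc2c, Rps6ka6, Ccdc174 and Amer1 (at least 31.7-fold) above background; all but Ccdc174 were also detected in wild-type fetal liver.

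Apart from genes already named, genes outside the lists with large differences in both genotypes and all 4 arrays above background were on the higher side Cpt1a, the gatekeeper of mitochondrial fatty acid entry (15.8-fold in null and 8.70-fold in wild type), Pnp2 (17.9 and 13.2), H2-Q5, H2-Q2, H2-K2, Tspan8, Timeless, Ankrd13a, Slc7a4 and Leprot. On the lower side they were Cpne7 (12.3 and 8.79), Radil (10.5 and 15.2), Tmem87a, Katnbl1, Fnip2, Mrap, Gmpr, Fbxo30, Rps4l and Morc2a. For Tmem87a another choice of probe, the one nearest the 3′ end, did not pass 2-fold in null cells.

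The design allowed 1 test, a limma fit over all 4 arrays with source and genotype as additive terms and 1 residual degree of freedom, so it bears on a source difference shared by the genotypes and not on the null pair alone. Over 17657 genes well above background on at least 1 array it called 0 higher (0%) and 0 lower at an adjusted p of 0.05 (limma, Benjamini-Hochberg), with 2337 genes at an unadjusted p below 0.05. Restricted to the 11163 genes well above background on all 4 arrays, it called 84 higher (0.752%) and 16 lower (0.143%). Bone marrow was higher in all 4 cross comparisons for B2m, by 4.86 ± 0.44 on the log2 scale (SE; adjusted p = 0.019, limma), for Car1, by 6.54 ± 0.50 (adjusted p = 0.0111, limma), and for Cdkn2c, by 4.16 ± 0.60 (adjusted p = 0.0413, limma). Lgals1 (-4.82 ± 0.46), Slc16a3 (-5.59 ± 0.56) and Ndufa4l2 (-4.81 ± 0.45) were lower, with adjusted p-values of 0.019, 0.0196 and 0.019 (limma). Of 17 antigen-presentation genes fitted 8 passed on the higher side and 0 on the lower: H2-K1, H2-D1, B2m, H2-Q7, H2-T23, Tap2, Tapbp and Psmb8. Of 13 interferon-response genes 2 passed, Ifi27 and Ifi47, and of 19 glycolysis and hypoxia genes Slc16a3 alone, while 0 of the fitted globin, ATF4-response, Polycomb and lymphoid genes did.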

How the data were processed

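RNA of 4 MEP samples was hybridised to 1-colour Agilent mouse arrays (250 ng of total RNA and Cy3, per the labels' protocols). The deposited intensity values are Feature Extraction's processed signals, background-subtracted within each array and not scaled between arrays, per the file headers. The flags and probe positions used are those deposited in the same files, and probe coordinates are mm9. All 4 arrays lie on 1 slide and were scanned once, so slide and scan do not separate the groups. The series' own table of intensities, as deposited, differed from these signals by at most 0.496% and was an alternative.

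Control spots and outlier spots were left out, and spots of a probe were averaged, giving 39418 probes. Among probes printed 10 times the median SD between spots was 0.0844 to 0.143 on the log2 scale, which measures the precision of spots within an array only. Different probes of a gene matched less closely. For 695 called genes, other probes were well above background on both null arrays. Their mean difference had the same direction in 80.4% of these genes and passed 2-fold that way in 48.5%. Signals were scaled to the 75th percentile over 12874 probes well above background on all 4 arrays, and log2 was taken. The brightest probe stood for a gene, and the median difference of all genes was taken off. Of the probes, 26156 were named by accession, 3122 by symbol and 909 by synonym in a RefSeq table (GRCm38.p6), and 9231 kept the file's name.

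Tools were limma 3.58.1 in R 4.3.3 and Python 3.11.15 with pandas 2.3.3, and the scripts were tested on simulated data. The members and the 42 gene lists were chosen with earlier results of these data known. Named genes were the called members of each list with the largest differences, up to 8 a direction. Outside the lists they were the 12 highest and 12 lowest genes detected on both arrays, the 6 largest bounds a direction, the 10 genes a direction with the largest difference shared by the genotypes, and the 6 with the largest opposite differences. List members named beyond this rule were chosen after their values were seen. Alternatives changed the background correction, scaling, filter, choice of probe, pseudocount and threshold. A few genes that the rule names are not reported here.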

Additional observations from a re-analysis of the deposited data

Results flagged for a closer look

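The 2 genotype pairs share no array, and 35 named genes lay past 2-fold in opposite directions in them. For each gene the relative log2 difference, bone marrow minus fetal liver, is given first for Ezh2-null and then for wild type. Over all 14392 genes compared in both genotypes, 335 were lower in null and higher in wild-type bone marrow (18.2% of those called lower in null), and 73 were the other way (2.38% of those called higher in null). The named genes were in part picked for this pattern, so their split does not stand for all genes. With 1 array per group the difference between the pairs was not tested. In null cells 23 of the 35 were lower in bone marrow and 12 were higher.

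Lower in null and higher in wild-type bone marrow were, among polycomb, DNA methylation and other chromatin genes, Eed (-1.25 and 2.38), Mtf2 (-3.37 and 1.82), Chd4 (-1.68 and 1.07) and Dnmt1 (-1.34 and 1.23). Among regulators of proliferation and stress they were Myb (-2.39 and 1.56), Mki67 (-2.78 and 1.32), Klf6 (-4.49 and 2.25) and Sesn2 (-3.66 and 2.15). Among glutathione and proteasome genes they were Gclc (-1.03 and 2.36), Gstm1 (-1.10 and 1.76) and Psmd11 (-1.34 and 2.08). Of the aminoacyl tRNA synthetases, which load tRNAs, there were Iars (-2.25 and 1.53) and Tars (-2.27 and 1.56). Cell surface proteins with this pattern were Bst2 (-1.50 and 3.27), Il1rl1 (-3.19 and 2.88) and Itgb2 (-1.08 and 2.19). Outside the lists there were Ccdc174 (-5.27 and 1.67), Prrc2c (-5.76 and 1.62), Lsm12 (-2.45 and 2.31), Ppp1cb (-2.52 and 2.08), Ptbp3 (-3.42 and 2.70), Rpap3 (-2.06 and 2.67) and Zc3h18 (-2.05 and 3.51).

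Higher in null and lower in wild-type bone marrow were the clustered histones H2ac21 (1.63 and -2.14), H2bc18 (2.32 and -4.34), H2bc3 (1.24 and -1.36), H3c3 (1.01 and -1.57), H3c7 (1.29 and -1.90), H3c8 (1.31 and -3.24) and H4c17 (1.55 and -1.70), whose probes may match several near-identical copies. The other genes with this pattern were Vpreb1 (7.89 and -2.46), Gstt1 (4.23 and -1.76), Pex11g (2.76 and -2.21), Bcl2l11 (1.76 and -2.75) and Trf (1.29 and -1.22). Vpreb1 encodes part of the pre-B cell surrogate light chain and Bcl2l11 the cell death protein Bim. A value for a gene detected on 1 array of a pair is a bound.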

How the results depend on the processing

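Against 3260 genes higher and 2374 lower in null bone marrow, normexp background correction gave 1878 and 1043, the 75th percentile alone 1715 and 4482, a 3-fold threshold 1544 and 1445, and a 1.5-fold threshold 5159 and 3931. With no background filter 5066 genes were lower and 4165 higher. The additive limma fit called 0 genes as planned and 100 among genes detected on all 4 arrays. With the mean over a gene's probes the sign reversed for Dmtn (0.12), Mrpl50 (-0.76) and Stat3 (0.70), and with the probe nearest the 3′ end for Irf1 (-0.30), Mrpl50 (-2.75) and for the gene Mvk (-0.33). The cause was not tested. Of 341 named genes called, 225 were called under every setting that measured them, and normexp, which compresses dim signals, took 67 of 340 under 2-fold. List medians near 0 changed sign: with the position trend taken off, that of the globin switching regulators went from -0.09 to 0.06 and that of the endothelial and stromal list from -0.27 to 0.03, and with normexp that of Hox from -0.01 to 0.01. On the 75th percentile scale alone every list median is lower by 0.51, which also puts those of the stem (0.19) and cholesterol (0.47) lists below 0. With 1 array per group no replicate could be left out. No paired analysis of the null samples alone was possible because each group has 1 array. The additive fit over all 4 arrays compared the sources with genotype as a term. Signal over background limits the bounds, since genes near the detection limit have no measured level there.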

Other observations

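Several gene groups not described above had genes called in both directions in Ezh2-null cells, beside 19.5% of all genes called higher and 14.2% lower. Of 14 measured genes of the p53 response and apoptosis, 4 were higher and 4 lower in null bone marrow. Mdm2, the ligase that degrades p53, was at 219 in null fetal liver and 36.4 in null bone marrow, while Trp53, which encodes p53, was at 235 and 622. Sesn2, a stress-induced inhibitor of growth signalling, was at 209 and 16.6. Of 17 genes of cholesterol synthesis and uptake, 4 were higher and 3 lower, shares near those of all genes. Hmgcs1 and Idi1 were among the lower ones, at 193 and 6.93 and at 821 and 168, and Dhcr7, which makes cholesterol in the final step, was higher, at 74.4 and 283. Of 20 antioxidant genes, 6 were higher and 2 lower. Gstt1, a glutathione transferase, was at 7.28, below background, in null fetal liver and at 250 in null bone marrow, and Nqo1, a quinone reductase, was at 525 and 1440.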
